A study of Homo sapiens with 6 samples.

Results

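Interferon-stimulated and RNA-sensing genes were examined in MDA-MB-231 cells, a human cell line established from a triple negative breast cancer, after stable knockdown of PELP1. The set was a list of 47 gene symbols: receptors that sense viral RNA, interferon-beta, transcription factors of the interferon response, and genes that interferon induces. The list was given by name, and all 47 symbols were found among the 23228 in the count tables. It was chosen with earlier results of these data known, so the shares of its members are no independent check. RNA-seq compared 3 replicates of cells that carry a non-targeted shRNA (control) with 3 replicates of cells that carry a PELP1 shRNA (PELP1-KD). Both groups were made with lentiviral particles, were selected with puromycin and grew in RPMI medium with FBS. The labels name no treatment with interferon or with a further virus. Each group rests on 1 shRNA, so that PELP1 loss cannot be told apart from other effects of that shRNA or of its integration and selection. The question was whether an innate response differed between the cells with the control shRNA and those with the PELP1 shRNA.

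Cells sense foreign RNA through the cytoplasmic helicases RIG-I (DDX58) and MDA5 (IFIH1) and through the endosomal receptor TLR3. These sensors signal through adaptors such as MAVS to the factors IRF3 and IRF7, which switch on interferon-beta. Secreted interferon binds its receptors, and the kinases JAK1 and TYK2 then phosphorylate STAT proteins. STAT2 acts with IRF9 in the complex ISGF3, which binds the interferon-stimulated response element (ISRE) in the promoters of many genes. Unphosphorylated STAT and IRF proteins also hold many of these genes at a basal level without added interferon.

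The core of the ISRE is a repeat of GAAA spaced by any 2 bases, and it was looked for on both strands of RefSeq promoters, which run from 250 bases before the start site of a gene to 50 bases after it. A promoter was found for 37 of the 47 members by symbol or synonym, and 24 of these held the core. Among all 35116 promoters of this length, 3.57% held it. That share counts single promoters, whereas a member counts if any of its promoters held the core. Counted by gene in this way, 628 genes that are no member held it and 15080 did not. The stretches below are those of the 5 members past the test with the largest log2FC whose promoter held the core, followed by the neighbours IFIT1 and IFIT5, added after their values were seen because they changed in opposite directions. They are read 5′ to 3′ along the strand of the gene in GRCh38.p14, and capitals mark each match on either strand. Overlapping matches in BST2 and in no other of these stretches run together.
BST2, chr19:17405725-17405780, minus strand: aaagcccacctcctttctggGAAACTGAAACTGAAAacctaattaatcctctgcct
MX1, chr21:41431834-41431883, plus strand: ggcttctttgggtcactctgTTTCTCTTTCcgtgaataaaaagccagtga
EPSTI1, chr13:42992262-42992311, minus strand: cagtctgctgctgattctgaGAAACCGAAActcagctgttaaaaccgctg
IFI27, chr14:94110608-94110670, plus strand: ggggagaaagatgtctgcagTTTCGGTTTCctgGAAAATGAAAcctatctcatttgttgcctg
IFI6, chr1:27672256-27672368, minus strand: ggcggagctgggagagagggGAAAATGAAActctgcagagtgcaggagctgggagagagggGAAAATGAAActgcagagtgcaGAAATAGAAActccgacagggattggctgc
IFIT1, chr10:89392487-89392549, plus strand: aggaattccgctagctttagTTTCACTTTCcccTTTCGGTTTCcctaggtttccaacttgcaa
IFIT5, chr10:89414503-89414593, plus strand: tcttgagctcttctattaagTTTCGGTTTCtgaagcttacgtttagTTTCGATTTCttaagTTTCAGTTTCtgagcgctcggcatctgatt

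In BST2 the matches began 130 and 124 bases before the start site, in EPSTI1 50 bases before, and in IFI6 156, 115 and 93 bases before. IFI27 held matches 108 and 95 bases before the earlier of its start sites. The MX1 stretch lies 196 bases before the last of its 3 start sites, and the promoter of the first start site held a further match in its transcribed part. The 3 matches of IFIT5 lie within 45 bases of its start site, and those of IFIT1 begin 116 and 103 bases before. A match is a description of the letters, and binding was not measured.

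The reads counted on genes ranged from 17304864 to 23132102 over the replicates, and 3 counts, taken as the floor of detection, stand for 0.127 to 0.177 CPM. CPM is the count relative to a scaled library size of 1e6 reads, and such floors cover counting error alone. The knockdown was seen in every replicate: PELP1 was at 57.2, 56.1 and 60.2 CPM in control replicates 1, 2 and 3 and at 28.6, 29.9 and 30.3 CPM in PELP1-KD replicates 1, 2 and 3 (log2FC -0.97, standard error 0.055, adjusted p-value 1.48e-11). The groups do not overlap, and the two-sided exact permutation test gave p = 0.1, the smallest value that 3 against 3 allow. VIM, CD44, KRT8 and KRT18, which mark this line, had at least 4737 reads in every library and summed to 3896 to 4045 CPM in the controls and 3245 to 3260 CPM in PELP1-KD cells. ESR1 and PGR had at most 1 and 2 reads, while ERBB2 had 1930 to 2727. Of 7 immune markers, PTPRC, LILRA4 and CLEC4C were at 0 in all libraries and CD3E had at most 2 reads. The immune list summed to between 117 and 119.96 CPM in the controls and 90.7 and 97.7 CPM in PELP1-KD cells, almost all of it CD68, and CD68 fell. Of 4 fibroblast markers, COL1A1 and PDGFRB rose and the list went from 19.4 to 24.1 CPM up to 61.6 to 67.0 CPM, with DCN at 0. Of 3 endothelial markers, VWF rose, tested through its PELP1-KD libraries alone, and the list stayed at or below 1.17 CPM in all libraries. Whether these shifts have a part in the results on interferon-stimulated genes was not tested.

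The interferon-stimulated genes were mostly higher in PELP1-KD cells, by small amounts. Of the 47 members, 43 had enough counts to be tested, 27 of them were upregulated and 2 were downregulated (adjusted p-value below 0.05, quasi-likelihood test of edgeR). Over all 12796 tested genes, 22.7% were upregulated and 24.2% downregulated, against 62.8% and 4.65% of the tested members. The median log2FC of the tested members was 0.29, against 0.0014 over all genes tested. Scaling by library totals alone, which raises the median of all genes to 0.051, gave 31 upregulated and 2 downregulated members against 3817 and 2418 of all genes. Of the members, 7 passed a log2FC of 1 as well, all upward, where 1.90% of all genes did so upward and 1.34% downward. The groups did not overlap in 23 members that were higher and 3 that were lower, and in 27.0% and 28.0% of all genes. The 4 members OAS1, USP18, TRIM22 and EPSTI1 passed the filter on low counts with fewer than 3 controls above its minimum, that is, through their PELP1-KD libraries, so their rise is no independent support. Without them, 23 of 39 members were upregulated and 2 downregulated, 4 past a log2FC of 1, with a median of 0.28. Among these 39, the groups did not overlap in 20 that were higher and 3 that were lower.

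**Figure D1:**
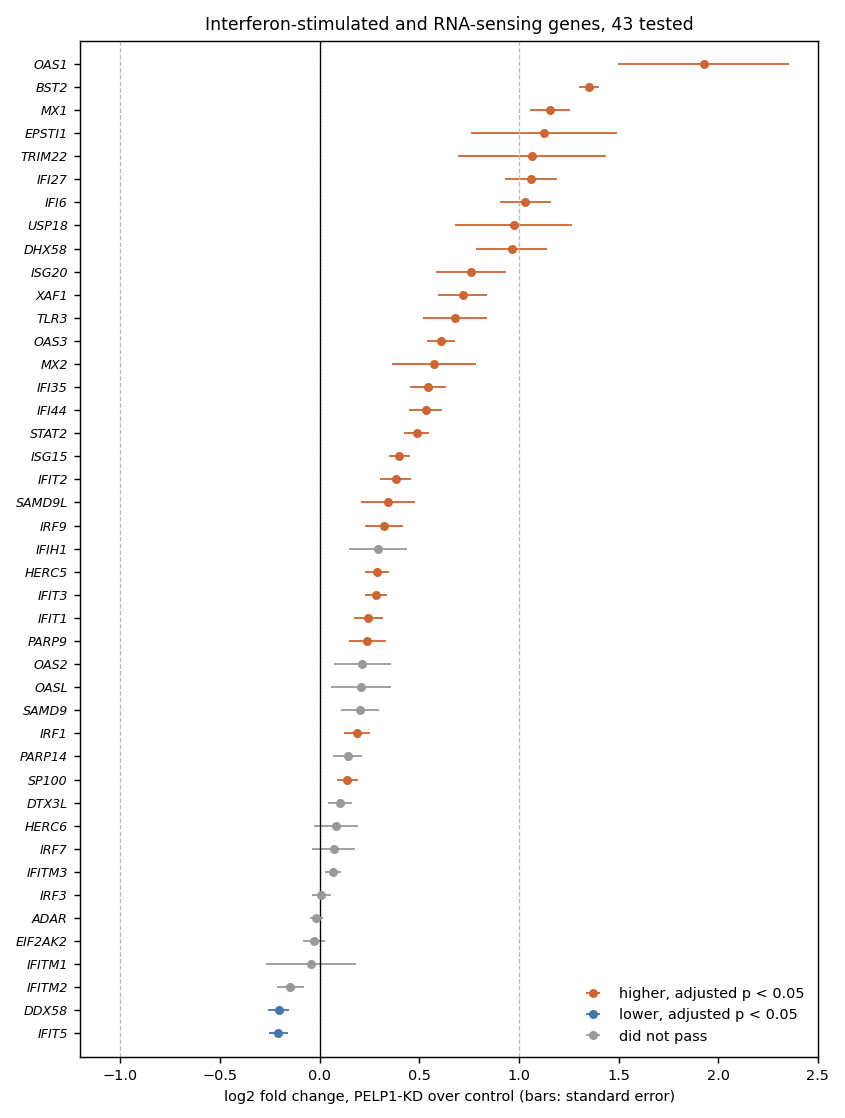
The log2 fold change of each of the 43 tested members, PELP1-KD over control, with its standard error as a bar; dashed lines mark a 2-fold change and the dotted line the median of all tested genes. The 27 upregulated members reach from SP100 at 0.14 to OAS1 at 1.93, and the downregulated DDX58 and IFIT5 lie at -0.20 and -0.21.

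**Figure D2:**
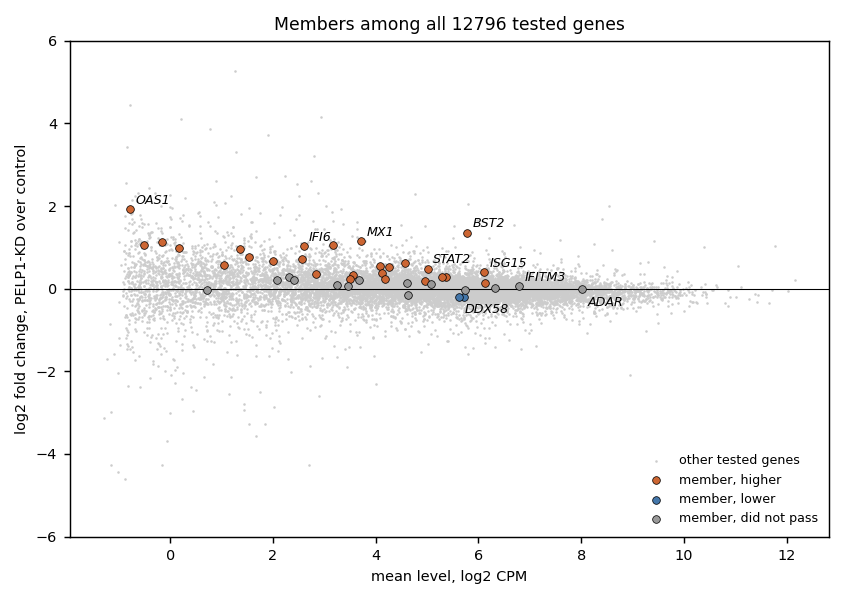
Each of the 12796 tested genes is a point, with its mean level in log2 CPM on the horizontal axis and its log2 fold change, PELP1-KD over control, on the vertical axis; members are the large points. Most members lie above 0 within the range that other genes of the same level span, and BST2 stands out among members of its level.

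The RNA sensors did not move together. DDX58, the sensor RIG-I, was at 55.7, 51.5 and 51.1 CPM in the controls and 46.8, 45.3 and 45.2 CPM in PELP1-KD cells. The PELP1-KD replicates all lay below the controls (log2FC -0.20, standard error 0.053, adjusted p-value 0.0033). IFIH1, the sensor MDA5 for long duplex RNA, was at 3.55, 4.71 and 4.62 CPM and 6.10, 4.69 and 5.18 CPM, with overlapping groups and no call (log2FC 0.29, standard error 0.14, adjusted p-value 0.101). DHX58, or LGP2, a helicase that binds RNA without a signaling domain of its own and modulates the other two, rose from 1.42, 1.58 and 1.91 CPM to 3.23, 3.23 and 3.14 CPM. The groups lay apart (log2FC 0.96, standard error 0.18, adjusted p-value 1.67e-04), at a low level of 24 to 74 reads per library. TLR3, the endosomal receptor for duplex RNA, rose from 2.25, 3.61 and 2.82 CPM to 4.67, 4.59 and 4.89 CPM, again without overlap (log2FC 0.68, standard error 0.16, adjusted p-value 0.00153). DHX58 and TLR3 were thus higher, DDX58 was lower, and IFIH1 did not pass.

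No reads were counted on IFNB1, the gene of interferon-beta, in any library, which allows a level of at most 0.177 CPM in the shallowest replicate. The 8 interferon genes of the pathway lists (IFNA1, IFNA2, IFNK, IFNE, IFNG and the interferon-lambda genes IFNL1, IFNL2 and IFNL3) were also at 0 in all 6 libraries. Transcripts without a poly(A) tail would not be captured by these libraries, and interferon protein in the medium was not measured. The interferon-induced chemokine CXCL10 had at most 1 read in a library.

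Among the transcription factors, the ISGF3 subunits STAT2 and IRF9 rose. STAT2 was at 26.96, 25.1 and 28.2 CPM in the controls and 38.99, 35.3 and 37.8 CPM in PELP1-KD cells, so that the groups lay well apart (log2FC 0.49, standard error 0.064, adjusted p-value 2.90e-06). IRF9, the DNA-binding subunit, went from 11.7, 9.95 and 9.57 CPM to 13.9, 12.7 and 12.4 CPM with no overlap (log2FC 0.32, standard error 0.095, adjusted p-value 0.00855). In GENCODE, 43.8% of the 50-base words of IRF9 transcripts are shared with other annotated genes, AL136295.5 first among them, so its count can depend on the annotation used. IRF1, an activator that interferon-gamma induces, rose from 29.4, 29.7 and 27.2 CPM to 33.96, 33.98 and 30.7 CPM (log2FC 0.19, standard error 0.064, adjusted p-value 0.0212). It shares 22.0% of its 50-base words with other genes, among them C5orf56, which overlaps it on the opposite strand. The remaining factors did not pass. IRF3, the constitutive factor activated by the sensors, was at 75.04, 80.5 and 83.9 CPM and 76.7, 81.4 and 82.7 CPM (log2FC 0.009, standard error 0.049, adjusted p-value 0.897). IRF7, the inducible partner of IRF3 that amplifies the response, was at 8.51, 11.3 and 12.1 CPM and 11.3, 10.97 and 11.3 CPM, with control replicate 1 below all other libraries (log2FC 0.070, standard error 0.11, adjusted p-value 0.614).

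BST2 changed with the lowest p-value of the members, the 24th lowest of all tested genes. BST2, or tetherin, holds budding virus particles at the cell surface. It was at 30.2, 30.1 and 31.4 CPM in control replicates 1, 2 and 3 and at 76.2, 78.1 and 79.3 CPM in PELP1-KD replicates 1, 2 and 3. From a mean of 30.5 CPM ± 0.764 (SD, n = 3) it reached 77.9 CPM ± 1.56 (SD, n = 3), a fold of 2.55 with groups far apart (log2FC 1.35, standard error 0.051, adjusted p-value 2.14e-14). No 50-base word of BST2 transcripts was shared with another gene. Of the IFITM genes, whose proteins block the fusion of virus and cell membranes, none passed. IFITM3 was at 105, 108 and 109.5 CPM and 114, 115 and 109 CPM (log2FC 0.066, standard error 0.04, adjusted p-value 0.189). Under library totals alone IFITM3 did pass (log2FC 0.11, adjusted p-value 0.0224). IFITM2 was lower in every PELP1-KD replicate, at 26.4, 24.995 and 26.8 CPM against 24.2, 24.05 and 22.4 CPM, but did not pass (log2FC -0.15, standard error 0.066, adjusted p-value 0.0755). IFITM1 had 23 to 35 reads per library and overlapping groups (log2FC -0.042, standard error 0.22, adjusted p-value 0.89). Between 32.0% and 35.2% of the 50-base words of IFITM1, IFITM2 and IFITM3 are shared with other genes, each other among them, and reads with more than 1 alignment were counted on no gene.

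The MX GTPases, which trap viral nucleoprotein complexes, both rose. MX1 went from 6.504, 8.32 and 9.01 CPM in the controls to 17.6, 18.7 and 17.1 CPM in PELP1-KD cells, a fold of 2.23 (log2FC 1.15, standard error 0.10, adjusted p-value 9.47e-09). The lowest PELP1-KD replicate of MX1 was far above the highest control. MX2 had 28 to 58 reads per library, and its groups overlapped (log2FC 0.57, standard error 0.21, adjusted p-value 0.0307).

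The OAS enzymes bind duplex RNA and make oligoadenylates, which act as a second messenger. OAS3 rose from 20.2, 17.3 and 18.4 CPM to 28.1, 29.2 and 27.5 CPM with no overlap (log2FC 0.61, standard error 0.071, adjusted p-value 6.20e-07). OAS1 had 4, 4 and 3 reads in the controls and 18, 11 and 19 reads in PELP1-KD cells, the largest fold of the members at one of the lowest levels (log2FC 1.93, standard error 0.43, adjusted p-value 9.73e-04). OAS2, at 4.14 to 5.24 CPM in the controls and 4.59 to 6.08 CPM in PELP1-KD cells, and OASL, at 3.19 to 4.67 and 4.22 to 4.57 CPM, overlapped between groups and did not pass, with a log2FC of 0.21 and 0.21. The genes OAS1, OAS3 and OAS2 follow each other on chromosome 12 of GRCh38 between 112906777 and 113011723 (GENCODE).

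The IFIT proteins act in the response to foreign RNA. Their genes lie side by side on chromosome 10 of GRCh38, from the start of IFIT2 at 89283694 to the end of IFIT5 at 89421001 (GENCODE). IFIT2 rose from 14.9, 14.6 and 15.4 CPM to 20.3, 17.999 and 20.1 CPM (log2FC 0.38, standard error 0.078, adjusted p-value 4.25e-04). IFIT3 rose from 38.1, 36.9 and 35.99 CPM to 46.4, 44.4 and 44.1 CPM (log2FC 0.28, standard error 0.054, adjusted p-value 2.50e-04). IFIT1 rose from 16.7, 15.7 and 16.9 CPM to 19.5, 19.5 and 19.2 CPM (log2FC 0.25, standard error 0.073, adjusted p-value 0.00894). In these 3 genes all PELP1-KD replicates were above all controls. IFIT5, the next of these genes after IFIT1, went the other way, from 57.1, 56.3 and 55.6 CPM to 50.1, 47.2 and 49.1 CPM (log2FC -0.21, standard error 0.05, adjusted p-value 0.00185). As the stretches above show, both IFIT1 and IFIT5 hold ISRE cores near their start sites.

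The ISG15 system attaches the ubiquitin-like protein ISG15 to other proteins. ISG15 itself was at 54.99, 59.3 and 63.8 CPM in the controls and 75.2, 79.1 and 80.7 CPM in PELP1-KD cells (log2FC 0.40, standard error 0.053, adjusted p-value 3.45e-06). HERC5, the main ligase for ISG15, went from 37.1, 34.1 and 34.2 CPM to 45.2, 42.7 and 40.6 CPM (log2FC 0.29, standard error 0.06, adjusted p-value 5.14e-04). USP18, which removes ISG15 and dampens the interferon receptor, had 6, 21 and 12 reads in the controls and 27, 29 and 30 reads in PELP1-KD cells (log2FC 0.97, standard error 0.29, adjusted p-value 0.00972). The groups did not overlap in these 3 genes. HERC6 was at 8.54 to 9.993 CPM and 8.44 to 11.2 CPM, with no call (log2FC 0.083, standard error 0.11, adjusted p-value 0.56). USP18 shares 23.4% of its 50-base words with other genes, USP41 first among them.

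The IFI genes, XAF1 and EPSTI1 are a mixed group known for their induction by interferon. Of these 7 genes 6 were tested, and all 6 rose. EPSTI1 was tested through its PELP1-KD libraries, so its rise is no independent support. IFI27 was at 4.91, 7.22 and 4.56 CPM in the controls and 11.6, 11.7 and 12.2 CPM in PELP1-KD cells, with control replicate 2 above the other controls and still below every PELP1-KD replicate (log2FC 1.06, standard error 0.13, adjusted p-value 1.02e-06). IFI6, a small protein of organelle membranes, rose from 3.84, 3.56 and 4.17 CPM to 7.03, 8.77 and 7.73 CPM (log2FC 1.03, standard error 0.13, adjusted p-value 1.43e-06). XAF1, an antagonist of the apoptosis inhibitor XIAP, rose from 3.90, 4.84 and 4.22 CPM to 7.03, 7.31 and 7.18 CPM (log2FC 0.72, standard error 0.12, adjusted p-value 6.12e-05). These 3 genes had groups without overlap. XAF1 shares 34.7% of its 50-base words with other genes, and 38.3% of its exon bases overlap PRAL on the opposite strand, whose reads cannot be told apart without the strand setting. IFI35 went from 11.6, 15.3 and 13.4 CPM to 20.2, 20.5 and 18.7 CPM (log2FC 0.55, standard error 0.09, adjusted p-value 4.64e-05) and IFI44 from 17.1, 13.7 and 15.8 CPM to 22.3, 21.5 and 23.2 CPM (log2FC 0.53, standard error 0.082, adjusted p-value 2.16e-05), also without overlap. EPSTI1, with 6, 7 and 15 reads in the controls and 28, 22 and 19 reads in PELP1-KD cells, rose with control replicate 3 above PELP1-KD replicate 3 (log2FC 1.13, standard error 0.37, adjusted p-value 0.0157). IFI44L, the neighbour of IFI44, was too low to be tested, with 4, 6 and 7 reads against 0, 1 and 4 reads. Fitted without a filter on low counts, IFI44L passed in the lower direction (log2FC -1.85, standard error 0.78, adjusted p-value 0.0463).

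**Figure D3:**
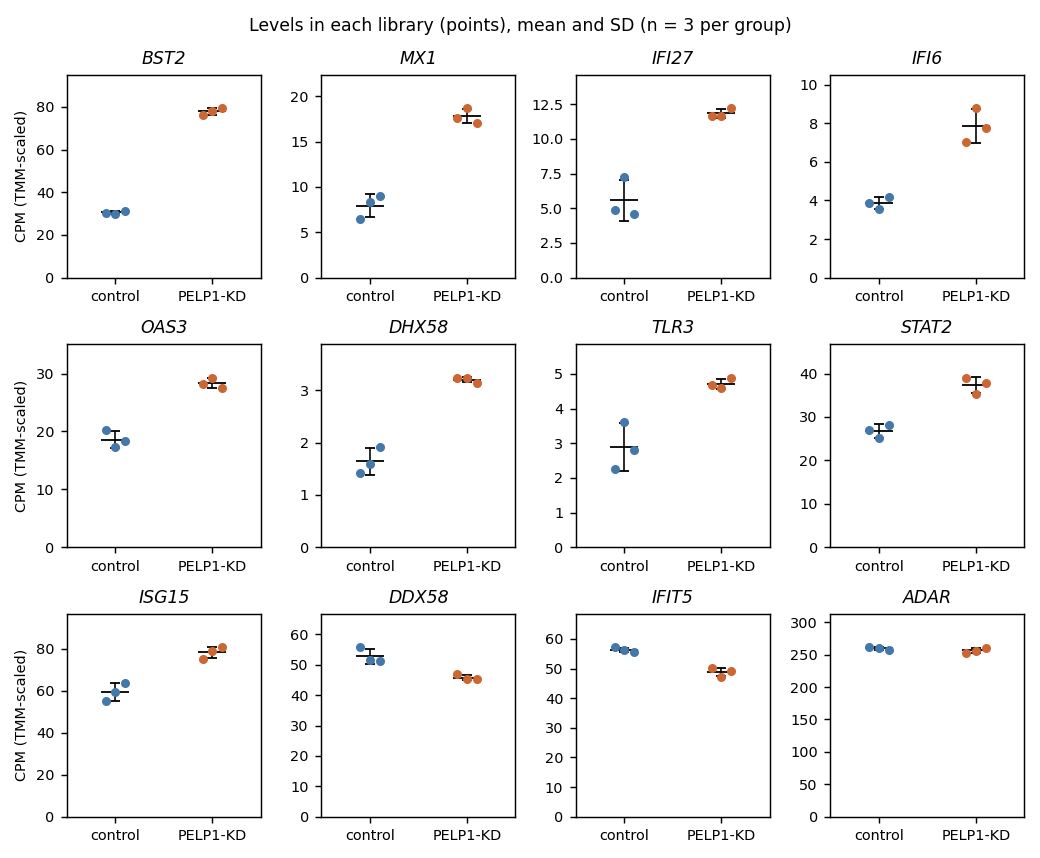
Level of 12 members in each library, in TMM-scaled CPM from 0; points are the 3 replicates of each group, the dash their mean and the bar their SD. BST2, MX1, IFI27, IFI6, OAS3, DHX58, TLR3, STAT2 and ISG15 are higher in every PELP1-KD replicate, DDX58 and IFIT5 are lower in each, and ADAR overlaps between groups at 253 to 261 CPM.

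Enzymes that bind RNA differed among themselves. ADAR, which edits duplex RNA and is the most highly counted member, was at 261, 259.5 and 258 CPM in the controls and 253, 256 and 260.2 CPM in PELP1-KD cells (log2FC -0.016, standard error 0.031, adjusted p-value 0.694). EIF2AK2, the kinase PKR that halts translation on duplex RNA, was at 57.2, 53.2 and 51.5 CPM and 54.9, 50.01 and 53.8 CPM (log2FC -0.027, standard error 0.055, adjusted p-value 0.715). Neither passed, and both were slightly below 0 under TMM scaling and slightly above 0 under library totals, at 0.033 for ADAR and 0.023 for EIF2AK2. ISG20, an RNA exonuclease, rose from 1.66, 2.16 and 2.31 CPM to 3.69, 3.00 and 3.74 CPM with no overlap (log2FC 0.76, standard error 0.18, adjusted p-value 0.0014).

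The other members changed little or were scarce. TRIM22, an antiviral ubiquitin ligase, rose from 7, 12 and 3 reads to 14, 18 and 20 reads, with no overlap after scaling (log2FC 1.07, standard error 0.37, adjusted p-value 0.0228). SP100, a component of nuclear bodies, passed at a log2FC of 0.14 with overlapping groups, and so did SAMD9L at 0.34. PARP9, which acts with the ligase DTX3L, passed at 0.24 without overlap. Their counterparts SAMD9 at 0.20, DTX3L at 0.10 and PARP14 at 0.14 did not pass, and the difference between counterparts was not tested. Under library totals, which shift all genes upward, SAMD9 (adjusted p-value 0.0356), DTX3L (0.0459) and PARP14 (0.0313) did pass. SAMD9 also passed without PELP1-KD replicate 2 (0.0204) and PARP14 without control replicate 1 (0.0207). PARP9 and DTX3L overlap head to head and their promoters hold an ISRE core, and without knowledge of the strand setting their shared reads cannot be told apart. RSAD2, or viperin, had 0 to 3 reads per library and CMPK2, its neighbour on chromosome 2, had 0 or 1, so neither was tested.

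Per exon length, the most abundant members in the control cells were IFITM3 at 79.8 RPKM, ISG15 at 63.1 RPKM, BST2 at 27.3 RPKM, ADAR at 26.8 RPKM and IRF3 at 21.04 RPKM. RPKM divides the mean CPM by the exon length in GENCODE and carries the uncertainty of that length. In PELP1-KD cells BST2 reached 69.6 RPKM, above ADAR at 26.5 RPKM, while ISG15 stood at 83.2 RPKM and IFITM3 at 83.5 RPKM. OAS1, at 0.0392 RPKM in the controls, was at 0.151 RPKM in PELP1-KD cells. Summed over the 47 members, the level was 1165, 1153 and 1159.7 CPM in control replicates 1, 2 and 3 and 1331, 1313 and 1328 CPM in PELP1-KD replicates 1, 2 and 3.

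The 27 upregulated members differed in how well they held. With 13 other settings tried, 20 of the 29 called members, 18 of them upregulated, were called in the same direction in every setting that tested them. Among these, OAS1 was tested in the main setting through its PELP1-KD libraries alone. OAS1 was not tested when a mean of at least 1 CPM was required. DESeq2 left 19 members upregulated and 2 downregulated. The 8 that DESeq2 no longer called were MX2, IRF1, USP18, PARP9, TRIM22, SP100, SAMD9L and EPSTI1, and each was also lost when some replicate was left out. USP18 was lost without control replicate 1 (adjusted p-value 0.0542), and IFIT1 was lost without control replicate 2 alone (adjusted p-value 0.0547). EPSTI1 was lost without control replicate 2 (0.105) and without PELP1-KD replicate 1 (0.0908). IRF1 was lost without control replicate 3 (adjusted p-value 0.101) or PELP1-KD replicate 1 (0.0744) or 2 (0.0774), and TRIM22 without control replicate 3 (0.12) or PELP1-KD replicate 2 (0.0622) or 3 (0.069). MX2, PARP9, SP100 and SAMD9L were each lost under 4 of the 6 omissions, with adjusted p-values between 0.0502 and 0.223.

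A further 83 genes of the same pathway were taken from 4 lists, chosen by role. The choice was made with earlier results of these data known, so their shares are no independent check. Of these 83 genes, 66 were tested, 32 (48.5%) were upregulated and 13 (19.7%) downregulated, where 22.7% and 24.2% of all genes were. The 32 include APOBEC3G, which was tested through its PELP1-KD libraries. Scaling by library totals gave 33 and 9, against 3817 and 2418 of all genes. Their median log2FC was 0.11, and that of all genes 0.0014.

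**Figure D4:**
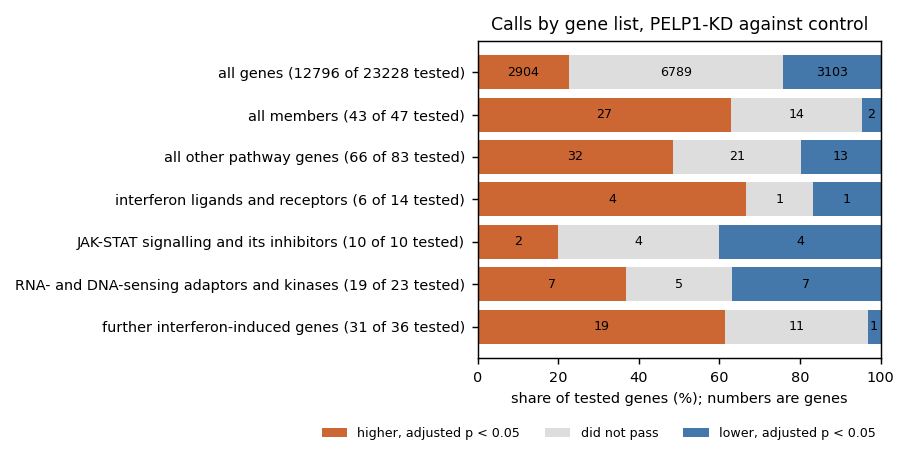
Share of the tested genes in each list that were higher, lower or did not pass (edgeR, adjusted p-value threshold 0.05), PELP1-KD against control, with the number of genes in each bar. The members and the further interferon-induced genes have 62.8% and 61.3% of their tested genes higher, the sensing adaptors have 7 higher and 7 lower, and all genes have 22.7% higher and 24.2% lower.

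Of the receptor genes, 4 rose and 1 fell, and the interferon genes of that list were at 0. IFNLR1, the specific chain of the receptor for interferon-lambda, rose from 4.02, 3.56 and 3.604 CPM to 6.98, 7.41 and 9.18 CPM without overlap (log2FC 1.09, standard error 0.14, adjusted p-value 1.43e-06). IL10RB, its shared chain, rose from 38.1, 41.2 and 42.4 CPM to 58.4, 56.1 and 58.4 CPM (log2FC 0.50, standard error 0.054, adjusted p-value 1.75e-07). The chains of the receptor for interferon-alpha and interferon-beta moved little and in opposite directions. IFNAR1 was at 92.5, 85.8 and 86.8 CPM and 85.7, 74.5 and 80.05 CPM (log2FC -0.14, standard error 0.051, adjusted p-value 0.0288), and IFNAR2 at 21.8, 22.8 and 23.2 CPM and 26.6, 25.03 and 25.2 CPM (log2FC 0.18, standard error 0.065, adjusted p-value 0.0315). The call of IFNAR1 was lost without control replicate 1 (adjusted p-value 0.0585), PELP1-KD replicate 2 (0.164) or 3 (0.0769) and under library totals (0.143). IFNAR2 was lost with DESeq2 (0.102) and without control replicate 1 (0.079) or 2 (0.0679) or PELP1-KD replicate 1 (0.105) or 3 (0.0599). In GENCODE, 83.2% of the exon bases of IFNAR2 overlap AP000295.1 or IL10RB-DT, and 38.1% of those of IL10RB overlap AP000295.1. The counts of IFNAR2 and IL10RB can therefore depend on the annotation used.

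In the JAK-STAT list, 2 of 10 genes rose and 4 fell. JAK1 fell from 114, 113 and 115 CPM to 89.4, 91.5 and 92.9 CPM without overlap (log2FC -0.32, standard error 0.04, adjusted p-value 1.53e-06). TYK2 rose from 101, 107 and 107 CPM to 116, 125 and 120.2 CPM (log2FC 0.20, standard error 0.042, adjusted p-value 6.34e-04). SOCS1, an inhibitor of JAK kinases, was at 1.95, 2.64 and 3.55 CPM and 1.74, 1.83 and 2.08 CPM with overlapping groups (log2FC -0.52, standard error 0.21, adjusted p-value 0.0461), and its call was lost under voom, DESeq2 and library totals and with any of 5 replicates left out, with adjusted p-values between 0.0586 and 0.276.

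Of the sensing adaptors and kinases, 19 of 23 were tested, 7 rose and 7 fell. MAVS, the adaptor of DDX58 and IFIH1, was at 192, 190.1 and 195 CPM and 178, 181 and 176 CPM (log2FC -0.11, standard error 0.034, adjusted p-value 0.0121), a call lost under library totals (adjusted p-value 0.15) and without PELP1-KD replicate 3 (0.0619). TBK1, the kinase that activates IRF3, was at 72.97, 72.9 and 69.2 CPM and 68.5, 57.9 and 71.4 CPM and did not pass (log2FC -0.12, standard error 0.061, adjusted p-value 0.114). Without PELP1-KD replicate 3, TBK1 passed in the lower direction (log2FC -0.18, adjusted p-value 0.0353). NLRX1, a mitochondrial regulator of MAVS signaling, rose from 9.17, 9.90 and 7.83 CPM to 13.4, 14.5 and 14.3 CPM (log2FC 0.64, standard error 0.096, adjusted p-value 1.54e-05). RNF125, a ligase that marks DDX58 for degradation, fell from 3.96, 3.21 and 3.77 CPM to 2.92, 2.25 and 2.38 CPM (log2FC -0.53, standard error 0.17, adjusted p-value 0.0124). RNF125 was not called by DESeq2 (0.0701) or without PELP1-KD replicate 2 (0.0577).

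Of the 36 further interferon-induced genes, 31 were tested, 19 were upregulated and 1, NMI, was downregulated. PSMB9, APOBEC3G and GBP1 passed a log2FC of 1, of which APOBEC3G met the filter on low counts in 1 control and 3 PELP1-KD libraries and so was tested through the group where it is high. PSMB9 is an immunoproteasome subunit that rose from 12.1, 14.3 and 16.6 CPM to 33.7, 33.3 and 30.97 CPM (log2FC 1.18, standard error 0.085, adjusted p-value 4.92e-10). GBP1, a guanylate-binding protein, rose from 33.1, 29.9 and 29.005 CPM to 60.2, 59.4 and 64.9 CPM (log2FC 1.01, standard error 0.06, adjusted p-value 2.75e-11). GBP2, of the same family, rose from 20.4, 16.9 and 18.5 CPM to 33.9, 34.4 and 35.2 CPM (log2FC 0.90, standard error 0.07, adjusted p-value 1.77e-09). SP110, a nuclear body protein, rose from 5.44, 7.13 and 6.20 CPM to 10.9, 12.9 and 12.5 CPM (log2FC 0.94, standard error 0.11, adjusted p-value 7.31e-07). The groups did not overlap in these 4 genes. UBE2L6 and UBA7, the conjugating and activating enzymes of ISG15, rose by a log2FC of 0.71 and 0.61 (adjusted p-values 2.13e-06 and 2.73e-04). TAP1, a peptide transporter whose locus overlaps that of PSMB9, rose by 0.56, PARP10 and PARP12 by 0.57 and 0.55, and DDX60, a helicase, by 0.52 with overlapping groups. APOBEC3G, at 8 to 40 reads per library, rose by 1.07 with overlapping groups, and was lost with DESeq2 (adjusted p-value 0.0731) and without control replicate 2 (0.0867) or 3 (0.0506) or PELP1-KD replicate 3 (0.117).

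Calls were counted by whether the promoter held the ISRE core, with no test of the difference. Of the tested members with a promoter, 14 of 22 with the core were upregulated and 8 of 11 without it, with a median log2FC of 0.29 and 0.32. These counts include EPSTI1, with the core, and OAS1, without it. Both were tested through their PELP1-KD libraries, so their rise is no independent support. DDX58, which fell, had no core in this window, and IFIT5, which fell, had 3. Of the other pathway genes, 10 of 17 with the core and 14 of 35 without it were upregulated, with a median log2FC of 0.17 and -0.013. Among all tested genes outside both sets, 25.4% of 354 with the core and 22.4% of 9668 without it were upregulated, with medians of -0.023 and -0.0024. The letters TTCNNNGAA, the core of the gamma-activated sequence (GAS), were in any promoter of 12 of the 37 members. Counted by single promoter, they were in 7.66% of all promoters. In the IFI27 stretch shown above they overlap both ISRE matches.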

How the data were processed

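RNA-seq was done on 3 control and 3 PELP1-KD replicates of MDA-MB-231 cells, with stranded poly(A) libraries and single reads of 50 bases. The authors deposited, for each replicate, raw counts of reads per gene symbol. The submitters' processing notes name TopHat2, SAMtools and HTSeq and the build hg19, without versions; the use of strand and the annotation are not given in the sources used here. Of the entries tallied for a replicate, between 32.5% and 32.9% belonged to reads with more than 1 alignment. Between 7.64% and 8.19% matched no gene and between 0.657% and 0.688% were ambiguous, and none of these was counted on a gene. A read with more than 1 alignment may enter the tally more than once, so these are not shares of reads. Replicates of a group differed by more than sampling noise (chi-square per degree of freedom 1.46 to 4.07), and nothing says that they were selected separately, so p-values measure the spread between these samples.

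In R 4.3.3, genes passing filterByExpr (minimum count 10) were scaled by TMM and fitted in edgeR 4.0.16, whose quasi-likelihood F gave the p-values, with Benjamini-Hochberg adjustment over all 12796 tested genes. A call is an adjusted p-value below 0.05. Standard errors were recovered from the log2FC and its F. The members and lists were chosen with earlier results of these data known. Values per replicate are given for PELP1, for the 25 called members with the lowest p-values and for the sensors, IFNB1 and the transcription factors; of the other lists, 7 core genes and those called beyond a log2FC of 0.5, a few of which are not reported here. Exon lengths, coordinates and shared 50-base words come from GENCODE release 29 on GRCh38, promoters from RefSeq (GRCh38.p14), whereas the counts rest on hg19 and carry no coordinates. Replicate numbers 1 to 3 did not pair the samples, with correlations of deviations of 0.039, 0.065 and -0.078. Alternatives were RLE factors, library totals, DESeq2 1.42.0, voom in limma 3.58.1, other filters, a replicate block and leaving out each replicate. The scripts were tested on simulated counts.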

Additional observations from a re-analysis of the deposited data

How the results depend on the processing

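The number of upregulated members was 27 and stayed between 19 and 31 under the other tools, scalings and filters and between 21 and 26 with 1 replicate left out, and downregulated members numbered 2, or 3 with no filter on low counts, when IFI44L was added. The members beyond a log2FC of 1 numbered 7, and between 4 and 9 under the other tools, scalings and filters. They numbered 4 when a mean of at least 1 CPM was required, since the scarce OAS1, EPSTI1 and TRIM22 were then not tested. With 1 replicate left out they numbered 5 to 7. The median log2FC of the members moved from 0.29 to 0.34 under library totals, which shift all genes upward, and lay between 0.26 and 0.34 with 1 replicate left out. Downregulated genes of the other pathway lists numbered 13, and between 8 and 12 with 1 replicate left out, the lowest without PELP1-KD replicate 2; the cause was not tested. PELP1 kept its fall throughout, between -0.99 and -0.92. Members that did not pass changed sign near 0: under library totals IFITM1 (0.0066), EIF2AK2 (0.023) and ADAR (0.033); with 1 replicate left out, IRF3 (from -0.032 to 0.042, with -0.013 between), IRF7 (from -0.054 to 0.16), EIF2AK2 (from -0.059 to 0.014), IFITM1 (from -0.13 to 0.13) and HERC6 (from -0.019 to 0.17). With the replicate number as a block, which the check of pairing gave no ground for, 27 members were higher and 2 lower, and 33 and 14 of the other pathway genes, TBK1 being called lower (-0.13, adjusted p-value 0.0423). The depth limits OAS1, USP18, TRIM22, EPSTI1, IFI44L, RSAD2 and CMPK2, which rest on few reads, and a level of interferon transcripts under the floor could not be seen.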
